A study of Mus musculus with 9 samples.

Results

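Transcription factors of the primitive streak and the mesendoderm were followed in mouse embryonic stem cells (mESC). The 10 genes were taken by name: *Mesp1*, *Mesp2*, *Eomes*, *Mixl1*, *Gsc*, *Tbx4*, *Tbx6*, *Foxa2*, *Sox17* and *Evx1*. All 10 were found among the 29069 genes of the table, and 9 of them were among the 18156 genes with a mean normalised read count above 5 that entered the tests. *Foxa2*, with a mean of 2.0, did not.

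The cells were of the D3 line, an established mESC line, grown without feeder cells and kept for 24 h in 1 of 3 media with 3 replicates each. GS (ground state) medium was serum-free NDiff N2B27 with 1 μM of the MEK inhibitor PD0325901, 3 μM of the GSK-3 inhibitor CHIR99021 and 20 ng/mL LIF. DM (differentiation medium) was DMEM with 10% FBS and without inhibitors or LIF, and NO medium was DM with 250 μM of the nitric oxide donor DETA/NO. DM and NO therefore differed only in the donor compound, whereas serum, basal medium, inhibitors and LIF all changed between GS and DM and cannot be told apart.

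In the embryo the primitive streak forms where Nodal, Wnt and Bmp signals meet, and the cells that pass through it become mesoderm or definitive endoderm. Eomes and Brachyury (T), both T-box factors, act early in the streak, and Mixl1, Gsc and Evx1 are homeobox factors of its anterior and posterior parts. Mesp1 and Mesp2 are basic helix-loop-helix factors of the first cardiac and presomitic mesoderm, Tbx6 directs paraxial mesoderm, Tbx4 is best known from hindlimb, allantois and lung mesenchyme, and Sox17 and Foxa2 mark definitive endoderm. Naive mESC lie before these stages. Wnt signalling, which a GSK-3 inhibitor mimics by stabilising beta-catenin, is a known inducer of streak genes.

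The members did not move as a group. *Mesp2* and *Tbx4* were higher in NO than in both other media, *Mesp1* was higher in NO than in GS, and *Eomes* and *Gsc* were highest in GS and lower in DM and in NO. *Tbx6*, *Mixl1*, *Sox17* and *Evx1* did not pass the test in any pair of media, and *Foxa2* stayed at 5 or fewer normalised counts in every sample. The study followed *Mesp2* and *Tbx4* after choosing them on these same samples together with its Zeb1 binding data, so their direction here is not independent evidence. Its qRT-PCR, another measure, showed a significant rise of both already in DM and a larger one with DETA/NO. Here both were higher on average in DM than in GS, but neither passed the test.

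The promoters of the 4 members that differed among the media in the F test below are shown because 2 of them, *Mesp2* and *Tbx4*, rose in NO while the other two, *Eomes* and *Gsc*, fell. The bases that precede the RefSeq start of each gene are printed 5′ to 3′ on the strand of the gene, from GRCm38.p6, without bases that GENCODE annotates as exon. *Mesp2* is at chr7:79810477-79810726 on the plus strand, *Tbx4* at chr11:85896515-85896764 on the plus strand, *Eomes* at chr9:118477939-118478188 on the plus strand and *Gsc* at chr12:104473331-104473486 on the minus strand. The RefSeq start used for *Tbx4* lies 10343 bp inside the GENCODE gene.
Mesp2: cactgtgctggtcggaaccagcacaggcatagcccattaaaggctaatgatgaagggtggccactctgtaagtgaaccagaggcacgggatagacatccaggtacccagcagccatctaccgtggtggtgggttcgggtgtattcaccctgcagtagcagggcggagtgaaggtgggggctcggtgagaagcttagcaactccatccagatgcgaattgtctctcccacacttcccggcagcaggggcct
Tbx4: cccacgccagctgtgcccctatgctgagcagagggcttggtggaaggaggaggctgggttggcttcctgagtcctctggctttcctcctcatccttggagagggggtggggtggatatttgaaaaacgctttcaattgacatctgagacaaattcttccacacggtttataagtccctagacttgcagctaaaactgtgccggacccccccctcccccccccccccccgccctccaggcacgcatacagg
Eomes: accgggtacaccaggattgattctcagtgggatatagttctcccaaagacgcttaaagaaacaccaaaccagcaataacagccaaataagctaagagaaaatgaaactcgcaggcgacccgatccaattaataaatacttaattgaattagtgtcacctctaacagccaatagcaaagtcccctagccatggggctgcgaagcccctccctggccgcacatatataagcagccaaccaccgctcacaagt
Gsc: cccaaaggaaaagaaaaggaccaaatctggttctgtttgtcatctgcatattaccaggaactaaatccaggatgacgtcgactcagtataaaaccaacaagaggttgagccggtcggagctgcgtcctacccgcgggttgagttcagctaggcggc

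GC content of the 250 bases before the start was 57.6% for *Mesp2*, 58.4% for *Tbx4*, 46.4% for *Eomes* and 59.2% for *Gsc*. They held 8, 6, 8 and 22 CpG. For *Gsc* only the 156 bases printed above lie outside annotated exon. Its GC content and its 22 CpG therefore include exon bases, unlike those of the other genes, and are not comparable with them. RefSeq windows of 300 bases, 250 before and 50 after the start, were matched for 8 of the 10 members, in 10 windows, and not for *Mixl1* and *Sox17*. They were searched on both strands for 4 motifs. CACCTG, the E-box that Zeb1 binds, was in 2 of the 10 member windows (*Mesp1* and *Evx1*) and in 20.2% of all 32851 windows. AATCCACA, the FOXH1 motif, was in 1 member window (*Mesp2*) and in 0.855% of all windows. CTTTGAT, a TCF/LEF motif, was in 2 member windows (*Mesp1* and 1 of the 3 *Foxa2* windows) and in 3.73% of all windows, and TCACACC, a T-box half-site, in 1 (*Mesp1*) and in 3.98%. TCACACC and CACCTG can overlap, since both hold CACC, and a match is only a run of letters. By chromatin immunoprecipitation the study reported Zeb1 at the *Mesp2* and *Tbx4* promoters in GS, in wider regions than these windows. A window without CACCTG therefore does not mean a promoter without Zeb1.

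*Mesp1* and *Mesp2*, the neighbouring pair, are shown at the matches to CACCTG and AATCCACA. The first is on the minus strand at chr7:79793699-79793728, 126 bases before the RefSeq start. That start lies 198 bp inside the GENCODE gene, so the stretch is inside the annotated *Mesp1* gene, and it shows the reverse complement of the motif in capitals. The second is on the plus strand at chr7:79810740-79810769, 24 bases after the start and inside the gene, with the motif in capitals.
Mesp1: ccaaatatggtcCAGGTGgagcagactgga
Mesp2: cgaggggtcagAATCCACAcctctgcaaat

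The deposited values were read counts normalised by size factors and rounded to whole numbers, and totals per sample lay between 18290445 and 20508679. Estimated assigned reads were between 14293311 and 27092009 per sample, and 1 read was worth 0.70 to 1.32 normalised counts, so values of a few units rest on a few reads. Among the NO samples the depth was 26121744, 14522633 and 14293311 reads in replicates 1, 2 and 3. The NO replicates were far apart on the first principal component, which held 50.3% of the variance, at 25.9, 131.2 and 67.1, while the 6 other samples lay between -49.1 and -26.0. All 15 stem cell markers listed passed the minimum mean. Their sum was 132907 to 137602 in GS, 112329 to 120429 in DM and 78057 to 116255 in NO, lowest in NO replicate 2. *Tfcp2l1*, with means of 31053 in GS, 11299 in DM and 13316 in NO, carried much of the lower sum in DM. The other markers moved both ways from GS to DM, as *Pou5f1* (means of 11842 and 14145) and *Nanog* (13897 and 7975) did. The labels do not say whether replicates came from separate cultures, while the methods of the study describe a dish per sample and, for its experiments in general, independent repeats. If replicates shared a culture, p-values measure only the spread between these samples, which may be technical. In bulk RNA, fewer cells of a type and less RNA per cell cannot be told apart.

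**Figure D1:**
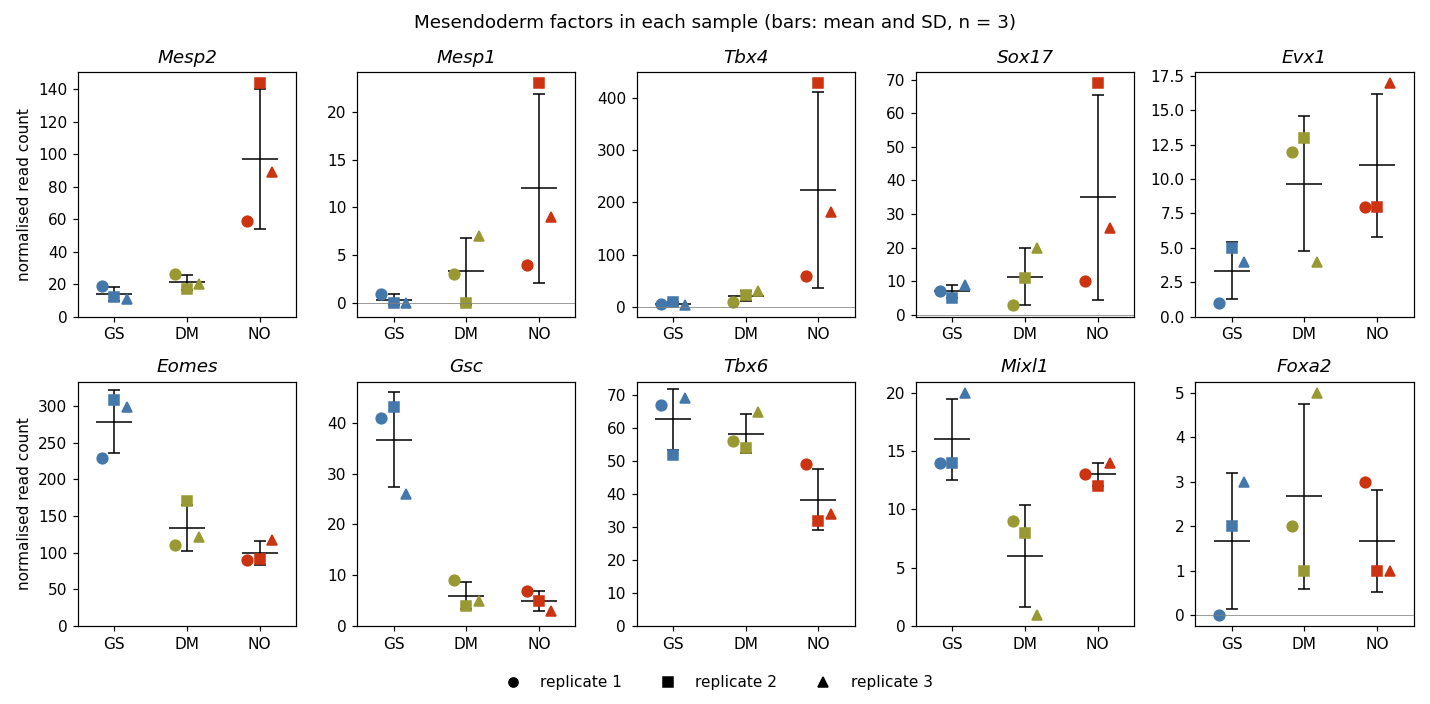
Normalised read count (vertical axis, 1 scale per panel) of each of the 10 members in the GS, DM and NO samples, with the marker shape giving the replicate and bars the mean and SD of 3 replicates. *Mesp2*, *Mesp1*, *Tbx4* and *Sox17* were highest in NO replicate 2 (144, 23, 428 and 69), and *Eomes* and *Gsc* had their 3 highest values in GS.

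The first question was which members differed between the pairs of media. With limma on log2(normalised count + 1), a gene was called when it changed at least 2-fold and its p-value, adjusted after Benjamini-Hochberg, was under 0.05. From GS to DM, 2 of the 9 tested members were called, both lower, whereas 4.2% of all tested genes were called. From GS to NO, 5 members were called, 3 higher and 2 lower, against 11.7% of all tested genes. From DM to NO, 2 members were called, both higher, against 8.55%. By direction, 2.94% of all tested genes were higher and 1.27% lower from GS to DM. The shares were 10.1% and 1.64% from GS to NO, and 6.78% and 1.77% from DM to NO. In the F test over the 3 media, 4 members passed (*Mesp2*, *Tbx4*, *Eomes* and *Gsc*), while 23.3% of all tested genes did. The median log2 fold change of the 9 members was 0.36, 1.53 and 1.31 in these comparisons, and that of all tested genes was -0.000685, -0.016 and 0.00104. The comparisons share samples, so that a member with unusual values in 1 medium enters 2 of them.

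**Figure D2:**
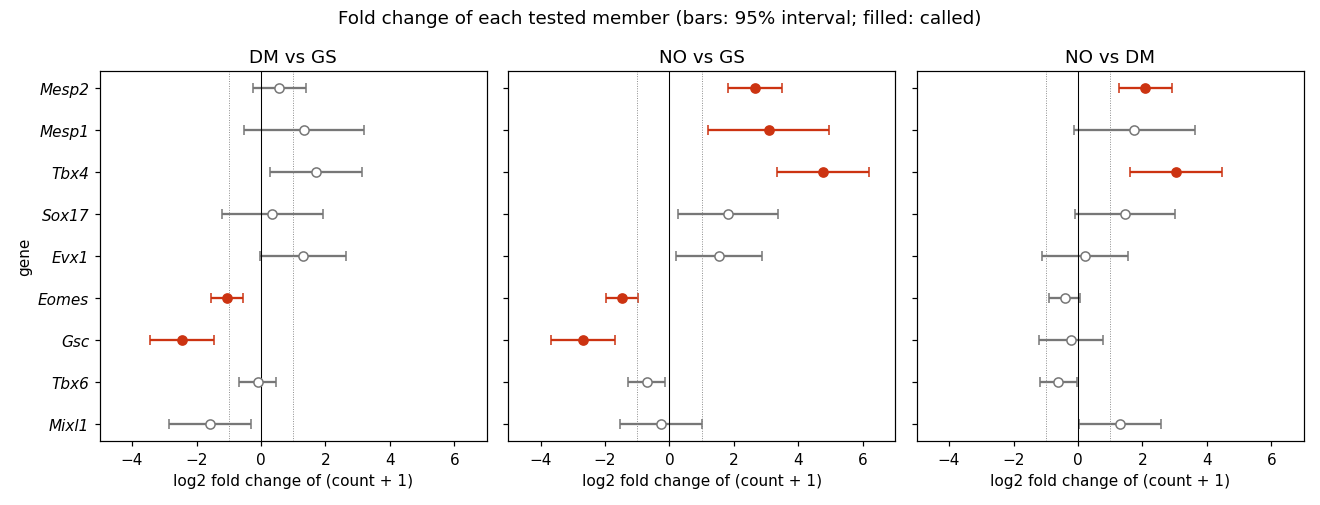
Log2 fold change of (count + 1) on the horizontal axis for the 9 tested members in each pair of media, with 95% confidence intervals from limma; filled points are called, and dotted lines mark a 2-fold change. Intervals of *Mesp2* and *Tbx4* in both comparisons of NO lay above 0, and those of *Eomes* and *Gsc* in both comparisons with GS lay below 0.

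*Mesp2*, a basic helix-loop-helix factor of presomitic and early cardiac mesoderm (ENSMUSG00000030543, chromosome 7, 79810727 to 79813439, plus strand, GRCm38), had normalised counts of 19, 12 and 11 in GS replicates 1, 2 and 3. In DM it had 26, 17 and 20, and in NO 59, 144 and 89. All NO values lay above all others, while GS and DM overlapped. *Mesp2* transcript levels rose 6.31-fold from GS to NO (log2 fold change 2.66 ± 0.38 SE, adjusted p = 0.00113). From DM to NO they rose 4.25-fold (log2 fold change 2.09 ± 0.38 SE, adjusted p = 0.00682). Between GS and DM the difference was 0.57 on the log2 scale with a 95% interval of -0.26 to 1.4 (adjusted p = 0.447). Without NO replicate 2, where *Mesp2* was highest, both differences still passed, at 2.33 (adjusted p = 0.00212) and 1.76 (adjusted p = 0.0167).

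*Mesp1*, the paralog that marks the earliest cardiac mesoderm (ENSMUSG00000030544, chromosome 7, 79792241 to 79793788, minus strand), stands 16938 bp from *Mesp2* and is read in the opposite direction. It was detected far less often, with normalised counts of 1, 0 and 0 in GS, 3, 0 and 7 in DM and 4, 23 and 9 in NO. The 3 NO values lay above the 3 GS values and overlapped those of DM. *Mesp1* passed the test from GS to NO (log2 fold change 3.08 ± 0.86 SE, adjusted p = 0.0272). From DM to NO the difference was 1.74 (adjusted p = 0.190), and from GS to DM 1.33 (adjusted p = 0.431). In estimated reads the call rests on 31 in NO against 1 in GS, a ratio of 29.3 with an exact 95% interval of 4.88 to 1193 that covers counting error only. The call was lost without GS replicate 2 (adjusted p = 0.0830), without GS replicate 3 (adjusted p = 0.0845) and under quantile normalisation (adjusted p = 0.0835). Without NO replicate 2, NO replicate 3 or DM replicate 3 its mean fell below the minimum and no test was made. With means of 0.333 in GS, 3.33 in DM and 12 in NO, *Mesp1* passed the minimum mean only through NO. Its call is therefore not independent of that filter.

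*Tbx4*, a T-box factor of limb and allantois mesoderm (ENSMUSG00000000094, chromosome 11, 85886422 to 85916097, plus strand), had the largest range of the 10 genes. It had normalised counts of 5, 9 and 3 in GS, 10, 23 and 30 in DM and 59, 428 and 182 in NO. The values of the 3 media did not overlap, with GS lowest and NO highest. The rise from GS to NO was 4.75 ± 0.65 (SE) on the log2 scale, or 27.0-fold (adjusted p = 0.00103), and that from DM to NO was 3.06 ± 0.65, or 8.32-fold (adjusted p = 0.0128). From GS to DM the difference of 1.70 had an adjusted p of 0.166. Its NO values differed among themselves by 7.25-fold between the lowest and the highest. Without NO replicate 2 the 2 rises were 4.08 (adjusted p = 0.00133) and 2.38 (adjusted p = 0.0357). Without DM replicate 1, where *Tbx4* was lowest in DM, the difference of NO from DM was 2.62 and no longer passed (adjusted p = 0.0511).

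*Eomes*, the T-box factor needed for definitive endoderm and for mesoderm to leave the streak and also used in trophoblast (ENSMUSG00000032446, chromosome 9, 118478212 to 118486132, plus strand), had the highest level of the 10 genes in GS. It had normalised counts of 229, 308 and 298 in GS, 111, 170 and 122 in DM and 90, 91 and 118 in NO. All GS values lay above all values in the serum media, and DM and NO overlapped. *Eomes* fell 2.08-fold from GS to DM (log2 fold change -1.06 ± 0.22 SE, adjusted p = 0.0148) and 2.77-fold from GS to NO (-1.47 ± 0.22, adjusted p = 0.00144). Between DM and NO the difference was -0.41 with a 95% interval of -0.90 to 0.07 (adjusted p = 0.227). The fall in DM lay near the 2-fold threshold and did not pass without GS replicate 2 (-0.98, adjusted p = 0.0774), GS replicate 3 (-1.003, adjusted p = 0.0745), DM replicate 1 (-0.93, adjusted p = 0.0691) or DM replicate 3 (-1.001, adjusted p = 0.0537). Exons of the predicted gene *Gm33460* overlap *Eomes*, and since the counting of the study excluded reads shared by several genes, part of the *Eomes* reads may be missing.

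*Gsc*, or goosecoid, the homeobox repressor of the anterior streak and organiser (ENSMUSG00000021095, chromosome 12, 104471209 to 104473330, minus strand), fell in the same comparisons as *Eomes*. It had normalised counts of 41, 43 and 26 in GS, 9, 4 and 5 in DM and 7, 5 and 3 in NO. The GS values stood clear of both serum media, which overlapped. From GS to DM *Gsc* fell 5.50-fold (log2 fold change -2.46 ± 0.45 SE, adjusted p = 0.0071), and from GS to NO 6.38-fold (-2.67 ± 0.45, adjusted p = 0.00257). The difference between NO and DM was -0.21 with a 95% interval of -1.21 to 0.78 (adjusted p = 0.787). It turned to 0.050 without NO replicate 3 and to 0.075 without DM replicate 1. Both falls from GS passed in all 18 alternatives in which *Gsc* was tested.

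*Tbx6*, the T-box factor of paraxial mesoderm (ENSMUSG00000030699, chromosome 7, 126781483 to 126785560, plus strand), was among the more abundant members in each medium. It had normalised counts of 67, 52 and 69 in GS, 56, 54 and 65 in DM and 49, 32 and 34 in NO. Its NO values were the lowest, below all GS and DM values, by a small margin. The log2 fold change was -0.71 ± 0.26 (SE) from GS to NO (adjusted p = 0.0763) and -0.61 ± 0.26 from DM to NO (adjusted p = 0.134). GS and DM differed by -0.10, with a 95% interval of -0.67 to 0.48 (adjusted p = 0.884). The difference from GS to NO passed in 3 of 19 alternatives, quantile normalisation (-1.16, adjusted p = 0.0207), moderation without a trend (adjusted p = 0.0496) and the fit without NO replicate 1 (-0.89, adjusted p = 0.0315).

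*Mixl1*, the homeobox factor of the streak that acts in mesendoderm (ENSMUSG00000026497, chromosome 1, 180693043 to 180697034, minus strand), was low in all samples. It had normalised counts of 14, 14 and 20 in GS, 9, 8 and 1 in DM and 13, 12 and 14 in NO. The DM values were the lowest and did not overlap those of GS or NO. The log2 fold change from GS to DM was -1.57 ± 0.58 (SE, adjusted p = 0.148), from DM to NO 1.31 ± 0.58 (adjusted p = 0.148) and from GS to NO -0.26 ± 0.58 (adjusted p = 0.785). No alternative brought any of these past the threshold.

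*Evx1*, the homeobox factor of the posterior streak (ENSMUSG00000005503, chromosome 6, 52313498 to 52318378, plus strand), had normalised counts of 1, 5 and 4 in GS, 12, 13 and 4 in DM and 8, 8 and 17 in NO. The NO values were above those of GS, and DM overlapped both. The log2 fold changes from GS were 1.31 ± 0.61 (SE) for DM (adjusted p = 0.258) and 1.53 ± 0.61 for NO (adjusted p = 0.0956). NO and DM differed by 0.23 (adjusted p = 0.834), a difference whose sign changed under quantile normalisation (-0.19) and without NO replicate 3 (-0.11) or DM replicate 3 (-0.25). The antisense gene *Evx1os* overlaps *Evx1*. The use of strand in counting was not stated, and the study left out reads that overlap several genes, so reads of the shared part may be missing from the count.

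Of the endoderm factors, *Sox17* (ENSMUSG00000025902, chromosome 1, 4490931 to 4497354, minus strand) had normalised counts of 7, 5 and 9 in GS, 3, 11 and 20 in DM and 10, 69 and 26 in NO. The NO values lay just above those of GS in replicate 1 and far above in replicate 2, and overlapped those of DM. The log2 fold change from GS to NO was 1.81 ± 0.71 (SE, adjusted p = 0.0942), from DM to NO 1.46 ± 0.71 (adjusted p = 0.188) and from GS to DM 0.36 ± 0.71 (adjusted p = 0.835). Without NO replicate 1 both differences of NO passed (2.47, adjusted p = 0.0202, and 2.12, adjusted p = 0.0437), and without NO replicate 2 they were 1.14 (adjusted p = 0.317) and 0.78 (adjusted p = 0.563). The sign between GS and DM turned to -0.18 without DM replicate 3. Exons of *Gm37587* overlap *Sox17*, whose count may lack reads in the same way.

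*Foxa2*, the forkhead factor of node and definitive endoderm (ENSMUSG00000037025, chromosome 2, 148042877 to 148046969, minus strand), had normalised counts of 0, 2 and 3 in GS, 2, 1 and 5 in DM and 3, 1 and 1 in NO. That is about 18 estimated reads over the 9 samples, too few for a test. The other members had from 43 (*Mesp1*) to 1561 (*Eomes*) estimated reads in total.

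Levels were compared between genes as normalised counts per kb of exon. In GS the order began with *Eomes* at 67.0 ± 10.4 (SD, n = 3), *Tbx6* at 34.7 ± 5.15 and *Gsc* at 28.9 ± 7.33, and the last pair did not differ beyond their spread. *Mesp2* at 7.20 ± 2.24 and *Mixl1* at 6.97 ± 1.51 followed with overlapping spreads. *Tbx4*, *Sox17*, *Evx1*, *Foxa2* and *Mesp1* came last, at 1.67, 1.47, 1.16, 0.703 and 0.261, each neighbour within the spread of the next. In DM, *Tbx6* and *Eomes* had the same level, 32.3 ± 3.25 and 32.3 ± 7.55, ahead of *Mesp2* at 10.8 ± 2.36, and the remaining 7 were at or below *Tbx4*, 6.17 ± 2.98. In NO the order was headed by *Tbx4* at 65.6 ± 55.2 and *Mesp2* at 50.1 ± 22.2, which overlapped each other. *Tbx4* also overlapped *Eomes* at 24.0 ± 3.82 and *Tbx6* at 21.2 ± 5.15. *Gsc*, the gene in position 3 in GS, was in position 8 in NO, at 3.94 ± 1.58.

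**Figure D3:**
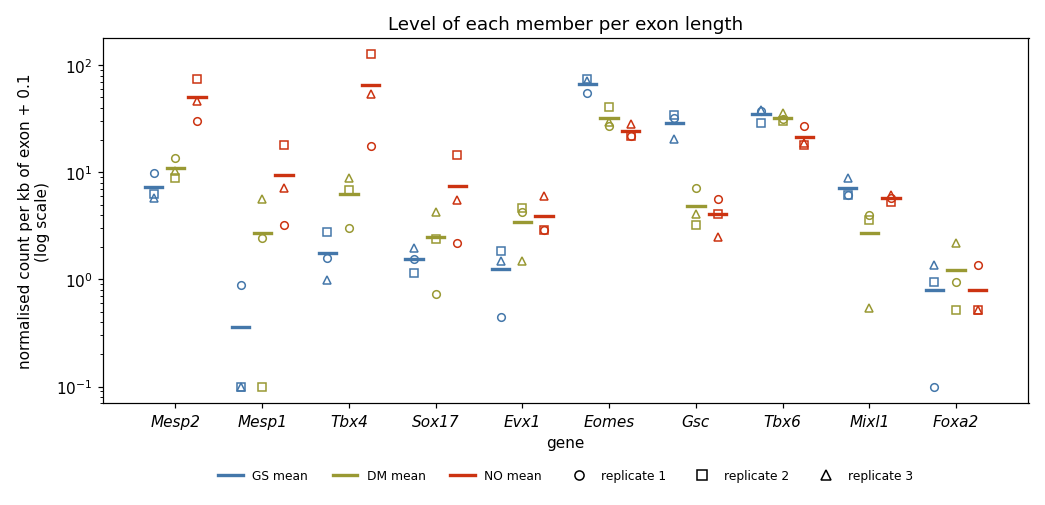
Normalised count per kb of exon plus 0.1 (vertical axis, log scale) of each member by sample, with the marker shape giving the replicate and lines the mean of 3 replicates per medium. *Eomes* had the highest mean in GS (67.0) and *Tbx4* in NO (65.6), where its 3 replicates were spread most.

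The order of the NO replicates was shared by 4 of the 9 tested members (44.4%). *Mesp1*, *Mesp2*, *Tbx4* and *Sox17* were highest in replicate 2, then in replicate 3, and lowest in replicate 1, with ratios of the highest to the lowest value of 5.75, 2.44, 7.25 and 6.90. The other 5 had other orders, and their ratios were lower, from 1.17 (*Mixl1*) to 2.33 (*Gsc*). The same order was seen in 28.7% of all tested genes, and in 1101 of the 1231 genes called higher in NO than in DM (89.4%). It is also the order of the NO samples on the first principal component. NO replicate 1 had the highest estimated depth of the 3, and the part of these differences in the results was not tested.

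Genes that work with the members were described from 3 lists, whose 59 genes (45 tested) were counted once each. From GS to DM 5 were higher and 5 lower, from GS to NO 5 and 6, and from DM to NO 7 and 4, that is 22.2%, 24.4% and 24.4% called. Of all tested genes 4.2%, 11.7% and 8.55% were called. Their shares by direction, given above, also stand beside the counts of each list below. The companion count of 11 from DM to NO was not stable. It fell to 5 to 7 in 6 of the planned settings and in 8 of the 9 fits without 1 replicate. Without NO replicate 1 it was 17. The count of 11 from GS to NO was 17 without NO replicate 1 and 7 without GS replicate 1 or GS replicate 2.

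Of 24 other factors and markers of streak and early mesoderm, 14 were tested. *T* (Brachyury), the T-box factor that defines the streak, had normalised counts of 137, 183 and 131 in GS, 10, 1 and 0 in DM and 8, 28 and 22 in NO. It fell from GS to DM (log2 fold change -5.74 ± 0.74 SE, adjusted p = 0.000882) and from GS to NO (-3.04 ± 0.74, adjusted p = 0.0151). From DM to NO it was 2.70 higher (adjusted p = 0.0342), although DM replicate 1 lay above NO replicate 1. *Sp5*, a direct Wnt target, had the same pattern, with normalised counts of 187, 327 and 237 in GS, 1, 5 and 5 in DM and 9, 75 and 14 in NO. *Eomes* and *Gsc* shared with *T* and *Sp5* the fall from GS in both serum media, but not the higher level of NO over DM.

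*Hand1*, a factor of lateral mesoderm and trophoblast, and *Lhx1*, a LIM homeobox factor of streak and node, were called higher in NO in both comparisons. *Lhx1* had normalised counts of 2, 0 and 0 in GS, 0, 1 and 1 in DM and 4, 75 and 13 in NO. It passed the minimum mean only through NO, so its calls are not independent of that filter. *Hand1* had 3, 4 and 4 in GS, 6, 8 and 6 in DM and 11, 111 and 33 in NO. *Hes7*, the oscillator of presomitic mesoderm, was lower in NO, with 13, 14 and 8 in GS, 16, 11 and 6 in DM and 2, 0 and 0 in NO. *Meox1*, a homeobox factor of somites, and *Tcf15*, of paraxial mesoderm, were higher in DM than in GS (adjusted p = 0.0170 and 0.0295). *Msgn1*, *Ripply2*, *Foxf1*, *Evx2*, *Cer1* and *Fgf8* were below the minimum mean: *Fgf8* did not exceed 8 normalised counts, and *Cer1* had 1 in DM replicate 1 and 0 in all other samples. In this list 2 genes were higher and 2 lower from GS to DM, 2 and 3 from GS to NO, and 4 and 1 from DM to NO, with medians of 0.10, 0.49 and 0.98 on the log2 scale.

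All 22 genes of the inducing signals and their mediators were tested. *Wnt3*, the ligand that starts the streak, had normalised counts of 8, 8 and 4 in GS, 1, 1 and 3 in DM and 38, 581 and 162 in NO, the highest being replicate 2 as for *Mesp2* and *Tbx4*. It rose from GS to NO by 4.39 ± 0.78 (SE, adjusted p = 0.00328) and from DM to NO by 5.94 ± 0.78 (adjusted p = 0.00212). *Wnt3* was also followed by the study after being chosen on these samples. *Wnt3a* rose as well, by 1.43 (adjusted p = 0.0250) and 1.82 (adjusted p = 0.0130). *Axin2*, the feedback target of Wnt, had normalised counts of 1356, 1592 and 1307 in GS, 300, 384 and 412 in DM and 261, 767 and 416 in NO. It was lower than in GS in DM (log2 fold change -1.96, adjusted p = 0.00261) and in NO (-1.69, adjusted p = 0.00341), and NO and DM overlapped (0.27, adjusted p = 0.586). *Lef1*, a transcriptional partner of beta-catenin, was lower in NO than in GS and DM (-1.73, adjusted p = 0.0146, and -2.75, adjusted p = 0.00347).

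In the same list *Nodal*, the main inducer of *Eomes* and *Gsc* in the streak, had normalised counts of 2838, 3044 and 2946 in GS, 2972, 2143 and 2863 in DM and 3430, 6033 and 4813 in NO. Its log2 fold changes of 0.66 from GS (adjusted p = 0.0370) and 0.82 from DM (adjusted p = 0.0210) were short of 2-fold. *Lefty1* and *Lefty2*, the inhibitors of Nodal, were lower in NO than in DM (-2.23, adjusted p = 0.00188, and -1.10, adjusted p = 0.0459), and *Lefty1* was higher in DM than in GS (1.53, adjusted p = 0.00566). *Bmp4* (1.10, adjusted p = 0.00633) and *Fgf5* were also higher in DM than in GS, *Fgf5* having normalised counts of 0, 0 and 0 in GS and 22, 11 and 9 in DM. Counts were 3 higher and 1 lower from GS to DM, 2 and 2 from GS to NO, and 2 and 3 from DM to NO. The medians of 0.0096, -0.12 and -0.13 were near 0.

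Of the 14 other T-box genes, 10 were tested, *T* included. *Tbx15* (normalised counts of 59, 42 and 56 in GS, 17, 14 and 18 in DM and 24, 26 and 20 in NO) fell in both serum media, as *Eomes* did. *Tbx18* was lower in DM than in GS and higher in NO than in DM, and *Tbx21* was higher in NO than in GS. Counts were 0 higher and 3 lower, 1 and 2, and 2 and 0 in the comparisons in the order above, with medians of -0.38, -0.056 and 0.60.

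**Figure D4:**
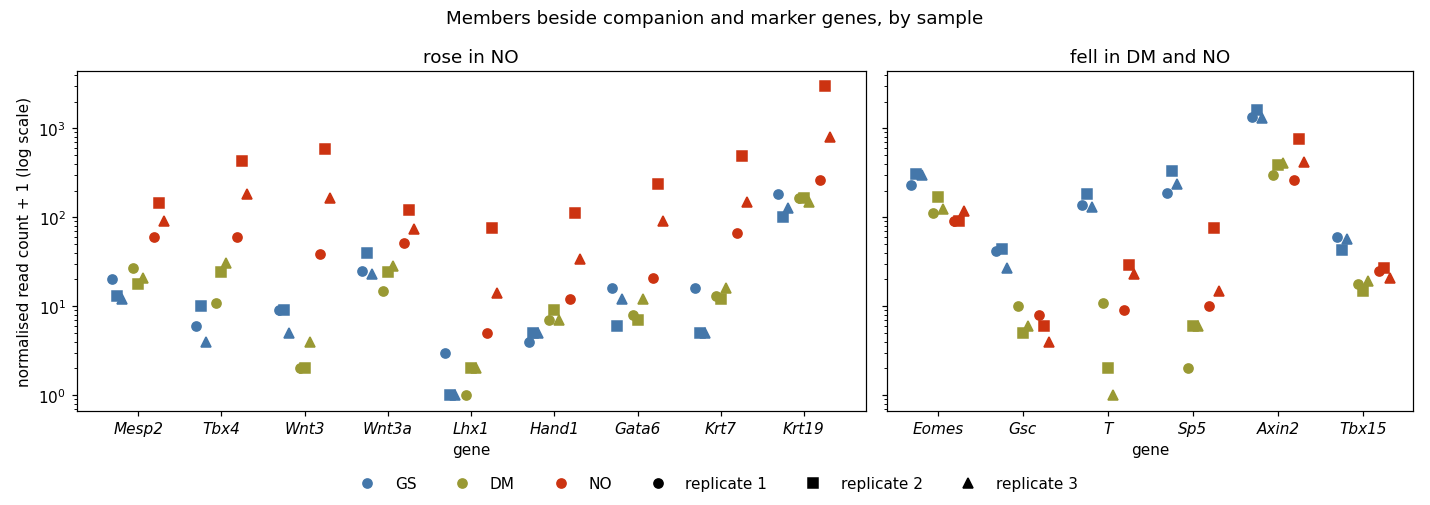
Normalised read count plus 1 (vertical axis, log scale) by sample, for *Mesp2* and *Tbx4* beside genes that rose in NO (left) and for *Eomes* and *Gsc* beside genes that fell in DM and NO (right); colour gives the medium and shape the replicate. On the left, NO replicate 2 was the highest sample of every gene, as for *Wnt3* (581), and on the right the 3 GS samples were the highest of every gene, as for *T* (131 to 183).

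Some markers of other cell types were also higher in NO, but not all of these were called higher than in GS. Of 12 trophoblast genes listed 11 were tested, and from DM to NO 5 were called higher and 0 lower. That is 45.5% higher, against 6.78% higher and 1.77% lower among all tested genes. *Krt7* had normalised counts of 15, 4 and 4 in GS, 12, 11 and 15 in DM and 65, 484 and 146 in NO, and *Krt19* had 183, 101 and 127, then 163, 165 and 148, then 265, 2977 and 794. *Elf5* was at 13 or fewer in every sample. *Tfap2c* and *Gata3* were called higher in NO than in DM with *Krt7*, *Krt19* and *Hand1*, and *Krt18* was higher in NO than in GS. From GS to NO, *Tfap2c* (log2 fold change -0.35, adjusted p = 0.510) and *Gata3* (0.92, adjusted p = 0.118) were not called. *Cdx2*, which defines trophectoderm, had 54, 75 and 46 in GS, 0, 4 and 0 in DM and 3, 14 and 5 in NO. It was lower in both serum media than in GS, and from DM to NO its log2 fold change was 2.06 (adjusted p = 0.0679). From GS to DM 0 were higher and 2 lower, *Cdx2* and *Tfap2c*, and from GS to NO 4 were higher and 1 lower. The summed level of the list was 2673 to 2994 in GS, 2336 to 2434 in DM and 2737 to 6685 in NO.

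Of 18 genes of primitive and definitive endoderm 15 were tested, with 2 higher and 1 lower from GS to DM, 4 and 1 from GS to NO, and 3 and 0 from DM to NO. *Gata6*, the factor that defines primitive endoderm, had normalised counts of 15, 5 and 11 in GS, 7, 6 and 11 in DM and 20, 234 and 90 in NO, the order of *Tbx4*, *Mesp2* and *Sox17*. *Hhex* and *Cxcr4* were higher in NO than in DM (adjusted p = 0.00719 and 0.0123), but neither was called from GS to NO (adjusted p = 0.139 and 0.160). *Col4a1*, *Col4a2* and *Lamb1*, which code for basement membrane proteins made by many cell types, accounted for the other genes called higher, and *Lama1* was lower in both serum media than in GS. Of the other defining markers, *Gata4* had normalised counts of 110, 67 and 78 in GS, 47, 69 and 90 in DM and 107, 179 and 123 in NO, and from DM to NO its log2 fold change of 0.99 was just short of 2-fold (adjusted p = 0.0486). *Foxa1* was at 18 or fewer, with all NO values above the rest (log2 fold change from DM 1.23, adjusted p = 0.257). *Hnf4a* was between 187 and 401 in all samples, *Ttr* at 0 or 1, and *Afp* at 0 in 8 of 9 samples. The sum of the list was 9347 to 10274 in GS, 5839 to 7045 in DM and 8125 to 11417 in NO. *Lama1* was its largest part, with means of 7824 in GS, 3224 in DM and 3723 in NO. *Col4a1* went the other way, with means of 328, 1218 and 1950, so the sum does not stand for the list as a whole. The part of endoderm and trophoblast genes in the levels of *Sox17*, *Eomes*, *Mesp2* and *Tbx4* was not tested.

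Of the neuroectoderm genes, *Zic2* and *Sox3* were higher in DM than in GS (adjusted p = 0.000625 and 0.0329). Other genes of the list did not follow them. *Sox1* had means of 66.3 in GS, 69.7 in DM and 59.0 in NO, and *Nes* had 533, 347 and 361. Neither was called in any pair of media. *Sox3* was also higher in NO than in GS (adjusted p = 0.0131). From DM to NO, *Zic1* was higher (adjusted p = 0.0324) and *Zic2* and *Pax6* were lower (adjusted p = 0.00987 and 0.0280). Of the 15 stem cell markers, 1 was higher and 2 lower in DM than in GS, and 0 higher and 2 lower in each comparison of NO. *Tfcp2l1* and *Dppa3* were lower in DM and in NO than in GS, *Utf1* was higher in DM, and *Utf1* and *Lin28a* were lower in NO than in DM. *Pou5f1* had normalised counts of 12537, 11278 and 11710 in GS, 15094, 11988 and 15354 in DM and 8983, 4276 and 9978 in NO. *Nanog* ranged from 12184 to 15465 in GS, from 7596 to 8190 in DM and from 7678 to 12693 in NO. Both were lowest among the NO samples in replicate 2, where *Mesp1*, *Mesp2*, *Tbx4* and *Sox17* were highest. The part of this in the rise of these members was not tested.

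The protein-coding genes whose log2 values followed each member most closely over the 9 samples are given as a description. The points are 3 replicates of 3 media and share their libraries, and the best match among all tested protein-coding genes is high by choice. For *Tbx4* they were *Tspan32* (Pearson r = 0.994), *Slc34a3* and *Nkx2-9*. For *Mesp2* they were *Shpk* (0.991), *9030617O03Rik* and *Sec14l5*, and for *Mesp1* *Tmem74* (0.981), *Tldc1* and *Dram1*. *Sox17* was closest to *Zfp688* (0.990), *Ckm* and *Frs3*. *Eomes* was closest to *Mfsd8* (0.969), *Trim24* and *Hunk*, and *Gsc* to *Ap3b2* (0.970), *Sstr2* and *Ywhag*. The lists of *Tbx6* (*Tctex1d2*, 0.985, *Acp5* and *Sc4mol*), *Mixl1* (*Ndufb2*, 0.974, *Ccdc68* and *Vps13b*) and *Evx1* (*Bambi*, 0.947, *Abat* and *Tcfl5*) shared no gene with these or with each other.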

How the data were processed

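Total RNA-Seq of mESC in GS, DM and NO medium was analysed, with 3 replicates per medium taken from the labels. The authors depleted ribosomal RNA, sequenced on Ion Torrent Proton, aligned reads to GRCm38 with STAR 2.4.0a, counted them over exons with featureCounts 1.4.5-p1 and normalised them with DESeq2. Reads shared by several genes were excluded, and strand use was not stated. The deposited values are thus a normalised score, that is read counts scaled by size factors and then rounded, and not raw counts. Depth was estimated from gaps and doubled values among the low values, which give the worth of 1 read. A further column, the sum over samples, was not used.

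Genes whose mean exceeded 5 were tested on the scale log2(value + 1) with limma 3.58.1 in R 4.3.3: 3 media as groups, all 9 samples, no covariate, empirical Bayes with a mean-variance trend, two-sided, Benjamini-Hochberg over 18156 genes. Called genes changed at least 2-fold with an adjusted p-value under 0.05. A gene can pass the minimum mean through 1 medium alone. Among the called genes named, *Mesp1*, *Lhx1*, *Wnt3* and *Zic1* passed it only through NO. *Fgf5*, *Meox1* and *Pax6* did so only through DM, and *Cdx2* only through GS. Calls of these genes with that medium are not independent of the filter. Fold changes on this scale understate changes of low genes. The procedure was tested on simulated data with the same spread in all 3 media. The NO replicates here lay farther apart than the others, a case that was not simulated. Members, gene lists and tests were chosen with earlier results of these data known. Named are all members, up to 4 called genes per list, comparison and direction with the smallest adjusted p, *T*, *Cer1*, *Wnt3*, *Nodal*, *Fgf8*, *Pou5f1* and *Nanog* in any case, and 3 neighbours per member by Pearson correlation. *Msgn1*, *Ripply2*, *Foxf1*, *Evx2*, *Ttr*, *Afp*, *Foxa1*, *Gata4*, *Hnf4a*, *Elf5*, *Sox1* and *Nes* were named after their values were seen. Some results, among them the counts and sums over the neuroectoderm list, are not reported here.

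The labels repeat replicate numbers 1 to 3 in each medium. Deviations from the group means of same-numbered samples correlated at 0.16, 0.17 and 0.30 between NO and DM. They correlated at -0.18, 0.022 and -0.23 between DM and GS, and at -0.046, 0.050 and -0.11 between NO and GS. Weak positive values in all 3 replicates were thus seen only between NO and DM. The main fit used no pairing, the replicate block covered all 3 media, and no fit paired NO with DM only. Alternatives were fits on the 6 samples compared, a replicate block, other minimum means and pseudocounts, quantile normalisation, equal totals, no trend, precision weights, no minimum fold change and leaving out each replicate. Coordinates and exon lengths are from GENCODE M21 on GRCm38, and promoter sequences from RefSeq on GRCm38.p6. Levels between genes were compared per kb of exon.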

Additional observations from a re-analysis of the deposited data

How the results depend on the processing

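With the replicate block over all 3 media, 2, 5 and 2 members were called from GS to DM, from GS to NO and from DM to NO. In that fit 4 members passed the F test, and 10, 10 and 12 companion genes were called. This block changed no call of a member. A minimum mean of 50 tested fewer genes by construction and left 1, 2 and 1 members, 2 in the F test, and 4 and 5 companion genes in the comparisons of NO with GS and with DM. The companion count from DM to NO (11) was 6 with the 6 samples compared, 7 with no minimum mean, 6 with quantile normalisation, 6 with no mean-variance trend and 5 with precision weights. Leaving out 1 replicate gave 5 to 17 for it and 7 to 17 from GS to NO, highest without NO replicate 1. Members called from GS to DM were 1 to 2, and from DM to NO 1 to 3. The cause was not tested. Signs that changed belonged to differences that passed in no setting: *Evx1* from DM to NO was -0.19 with quantile normalisation and -0.25 to 0.49 without 1 replicate, *Gsc* from DM to NO -0.45 to 0.075, and *Sox17* from GS to DM -0.18 to 1.02. *Mesp2* kept both calls in 18 of 18 alternatives (highest adjusted p 0.00774 and 0.0316), and *Tbx4* kept its call from GS to NO in 19 of 19. Values of a few reads limit *Mesp1*, *Evx1* and *Foxa2*.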
